A study of Homo sapiens with 24 samples.

Results

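The knockdown of METTL3 in 22Rv1 prostate cancer (PCa) cells grown without androgen was examined in 6 of the 24 RNA-seq libraries of the series, chosen by their labels as the 22Rv1 vehicle libraries. Of these, 3 came from cells transfected with pooled METTL3 siRNAs (siMETTL3) and 3 from cells given non-targeting control siRNAs (siSCR). Cells of both groups were grown in phenol red-free medium with charcoal-stripped serum, were transfected again 48 h after the first transfection and were then kept in ethanol, the vehicle of the synthetic androgen R1881, for 72 h. The other libraries come from 22Rv1 with 1 nM R1881 and from LNCaP:C4-2 cells in both treatments. 22Rv1 is an established enzalutamide-resistant PCa line. The siRNAs act on the transcript, so the groups differ in METTL3 level and not in genotype. Nothing in the labels says that the 3 libraries of a group were separate cultures, so the spread between libraries that p-values measure may be technical. For the main vehicle contrast this spread was pooled over the 12 libraries of 22Rv1, those with R1881 included.

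METTL3 is the catalytic subunit of the writer complex that places N6-methyladenosine (m6A) on mRNA, most often in GGACT-like contexts near stop codons and in 3′ untranslated regions (3′UTRs). Through reader proteins the mark is known to influence mRNA decay, splicing and translation. An siRNA loads a short guide strand into Argonaute, which cleaves the fully paired target. A guide can also lower other mRNAs that pair with its seed alone, bases 2 to 8 of the guide, most often through a site in the 3′UTR.

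The 6 libraries held 17060909 to 21306019 counted fragments. Expression is given in CPM, read counts brought to a common library size by the TMM method, and 3 counts, the smallest signal read here, equalled 0.137 to 0.174 CPM (counting error only). Fewer cells of a type and less RNA per cell cannot be told apart in such bulk libraries. The cells carried the markers of luminal prostate epithelium, with KRT8 at 315 to 395 CPM, EPCAM at 94.1 to 112 CPM and HOXB13 at 81 to 111 CPM over the 6 libraries. The basal keratins KRT5 and KRT14 and the endothelial PECAM1 and CDH5 had no count in any library. The fibroblast list was carried by COL1A1, at a mean of 29.3 CPM, and summed to 27.9 to 35.4 CPM in siSCR and 33.9 to 34.7 CPM in siMETTL3, and the leukocyte list summed to 1.16 to 2.03 and 1.32 to 1.82 CPM. Libraries siSCR 3 and siMETTL3 1 lay apart from the others of their groups along the axis of largest variance (36.9% of the variance), and mitochondrial genes took the largest share of the counts in these libraries, 6.9% and 7.45% within a range of 5.04% to 7.45%. The main counts are therefore also given without both, a setting chosen after seeing the data.

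The METTL3 transcript measured 50.4, 49 and 49.7 CPM in the siSCR libraries and 26.9, 26.1 and 27.4 CPM in the siMETTL3 libraries. The groups did not overlap, and each was tight, with means of 49.7 ± 0.726 and 26.8 ± 0.621 CPM (SD, n = 3). Knockdown left 0.539 of the control level, a log2 fold change of −0.89 ± 0.0817 (SE; adjusted p = 1.48e-06 from the quasi-likelihood test of edgeR, adjusted by Benjamini-Hochberg, as throughout). An exact two-sided permutation test of the means gave p = 0.1, the smallest value that 3 against 3 libraries allow. METTL3 (ENSG00000165819) lies on chromosome 14, minus strand (GRCh38, chr14:21498133-21511375).

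Few transcripts passed the threshold in the vehicle libraries. Of 17865 genes tested, 36 (0.202%) were DEGs, with an adjusted p under 0.05 and a change of at least 1.5-fold. Of these, 25 (0.14% of the genes tested) fell and 11 (0.0616%) rose. Without the fold threshold 100 genes (0.56%) passed, 69 lower (0.386%) and 31 higher (0.174%), and 2604 (14.6%) had an unadjusted p under 0.05. The median effect over all genes was −0.0043 on the log2 scale with an SD of 0.281. The count moved with single libraries. It was 228 (148 higher, 80 lower) without siMETTL3 1, 87 (41 higher) without siSCR 1, 23 without siSCR 2 and 15 without siMETTL3 2. Lower genes thus made up most of the 36 DEGs and the minority of those called without siMETTL3 1. Without both siSCR 3 and siMETTL3 1 it was 141 (78 higher, 63 lower), among them 30 of the 36 DEGs, and 1110 genes (6.11%) passed at any fold, 452 lower and 658 higher. With the 6 libraries fitted on their own, 14 of the 36 were called. That fit had 4 residual degrees of freedom in place of 8 and did not use the spread of the R1881 libraries. Its adjusted p was 0.000103 for TMEM123, 0.174 for JUNB and 0.265 for RABGEF1. By contrast 11 DEGs were called in all 6 fits that left out 1 vehicle library and under 7 other settings of scaling, filter and model, namely TMEM123, PM20D2, GNB1, METTL3, RRP1B, EDEM1, PHACTR2, COPS8, AASDHPPT and ZBTB34, which fell, and KLB, which rose. With the 1.5-fold threshold placed inside the test, TMEM123, PM20D2 and GNB1 were called and the others were not.

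**Figure D1:**
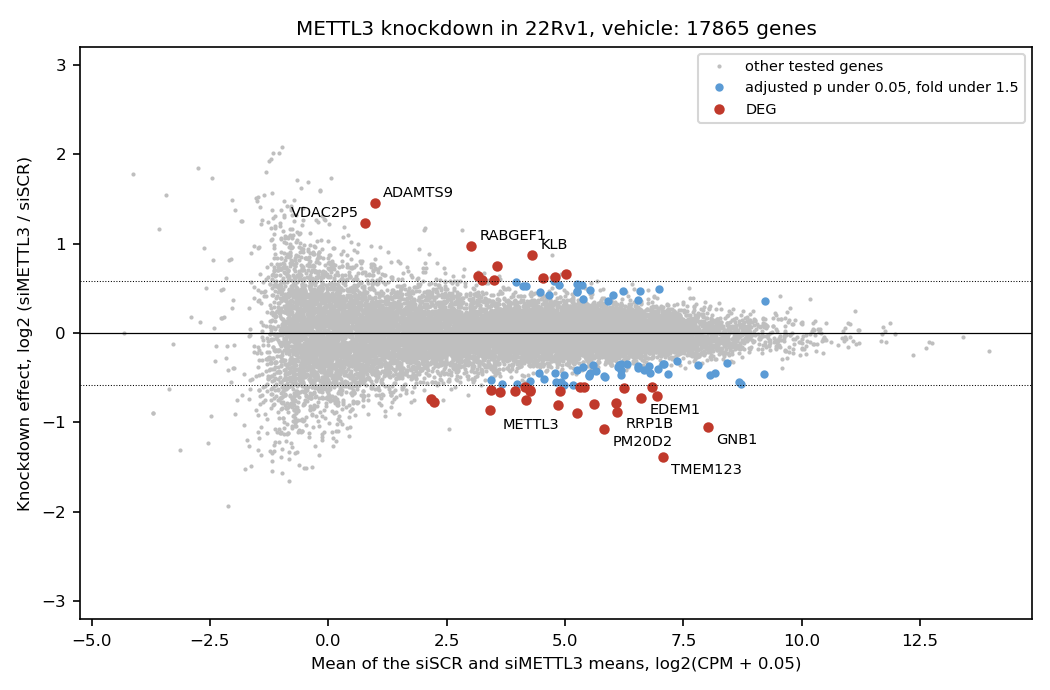
Knockdown effect in 22Rv1 with vehicle, as log2 (siMETTL3 / siSCR), against the mean level as log2(CPM + 0.05), for 17865 genes. Red points are the 36 DEGs, blue points genes with an adjusted p under 0.05 and a smaller change, and dotted lines mark 1.5-fold. Most DEGs lie below 0, with TMEM123 lowest at −1.39.

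The strongest decreases, each larger than that of METTL3, were in TMEM123, PM20D2 and GNB1. TMEM123, a transmembrane mucin-like protein known as porimin, measured 173, 181 and 227 CPM in siSCR and 83.3, 61.4 and 76.8 CPM in siMETTL3, and fell by 1.39 ± 0.101 on the log2 scale (adjusted p = 3.74e-08). PM20D2, a peptidase that removes mis-formed dipeptides, went from 72.8, 67.5 and 89.5 CPM to 39.3, 34.9 and 35 CPM (log2 −1.07, adjusted p = 1.01e-06). For both genes the siSCR 3 library was the highest, and no siMETTL3 library reached the lowest siSCR library. GNB1, which encodes the β1 subunit of heterotrimeric G proteins, had the lowest p-value of all genes, with 343, 348 and 356 CPM in siSCR against 174, 164 and 164 CPM in siMETTL3 (log2 −1.06 ± 0.0637, adjusted p = 1.91e-09).

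RRP1B, a nucleolar protein of ribosome biogenesis, measured 90, 88.7 and 87.5 CPM in siSCR and 55.2, 42.5 and 47.1 CPM in siMETTL3 (log2 −0.88, adjusted p = 3.87e-06). EDEM1, which extracts misfolded glycoproteins for degradation from the endoplasmic reticulum (ER), fell from 118, 129 and 119 CPM to 79, 67.3 and 75.1 CPM (log2 −0.72, adjusted p = 8.64e-06). COPS8, a subunit of the COP9 signalosome that regulates cullin ubiquitin ligases, fell by 0.79 on the log2 scale. Also lower were MAPK6, the atypical kinase ERK3 (134, 144 and 177 CPM against 97.8, 89.6 and 92.1 CPM, log2 −0.71), and PHACTR2, a regulator of protein phosphatase 1 and actin (log2 −0.80). AASDHPPT, the transferase that attaches phosphopantetheine to carrier proteins, went from 69.9, 81.3 and 104 CPM to 52, 47 and 49.5 CPM (log2 −0.78, adjusted p = 0.000405).

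NAPG, which helps to disassemble SNARE complexes after membrane fusion, fell by 0.60, and LNPK, which stabilises junctions of the ER network, by 0.61 on the log2 scale. The RNA polymerase III subunit POLR3F fell by 0.75 and the zinc finger genes ZBTB34 and THAP5 by 0.63 and 0.60. SNHG16, a long noncoding RNA that hosts small nucleolar RNAs, measured 88.9, 91.5 and 96 CPM in siSCR and 64.5, 54.1 and 62.6 CPM in siMETTL3 (log2 −0.61, adjusted p = 0.000405). JUNB, a subunit of the AP-1 transcription factor, went from 40.2, 36.5 and 32.6 CPM to 17.6, 24.6 and 27.7 CPM (log2 −0.64, adjusted p = 0.0116). Here siMETTL3 1 was the lowest library, and siMETTL3 3 lay closest to the controls.

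The remaining genes that fell had siSCR means of 5.56 to 23.1 CPM and adjusted p-values from 0.00703 to 0.0445. They comprised the metallothionein MT1G (log2 −0.86), the tubulin carboxypeptidase VASH2 (−0.78), the pseudogene PPP4R1L (−0.74), the mucin-type glycosyltransferase GALNT12 (−0.66), the inhibin chain gene INHBE (−0.64), ANKRD46 (−0.64), GIPC3 (−0.60) and ENSG00000256304, a gene on chromosome 12 with no symbol in the tables used (−0.65). MT1G shares sequence with other metallothioneins and PPP4R1L with its parent gene, so their counts are uncertain.

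Among the 11 genes that rose, KLB stood out by its p-value. KLB encodes β-Klotho, the co-receptor for the fibroblast growth factors FGF19 and FGF21, and measured 13.8, 12.6 and 15.3 CPM in siSCR and 26.3, 25.6 and 24.2 CPM in siMETTL3, a 1.83-fold increase (log2 0.87 ± 0.103, adjusted p = 6.38e-05). GLYCTK, glycerate kinase, rose from 27.5, 24.6 and 23.6 CPM to 34.9, 45.5 and 39.4 CPM (log2 0.66, adjusted p = 0.00642), and LDHD, the mitochondrial D-lactate dehydrogenase, from 19.1, 20.5 and 14.7 CPM to 24.4, 28.1 and 31.1 CPM (log2 0.62). The phosphodiesterase PDE3A (log2 0.59), the tubulin-binding TPPP3 (0.63), the sterol-desaturase-like FAXDC2 (0.64) and the matricellular SMOC1 (0.59) each rose by little more than the threshold.

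The largest increases rested on the fewest reads or on uneven libraries. ADAMTS9, a secreted metalloprotease, rose from 1.52, 0.807 and 0.755 CPM to 2.28, 3.05 and 3.15 CPM (log2 1.45 ± 0.304, adjusted p = 0.0278), and the processed pseudogene VDAC2P5 from 0.958, 1.15 and 0.871 CPM to 2.45, 2 and 2.6 CPM (log2 1.23). RABGEF1, a Rab5 exchange factor, was the one DEG whose groups overlapped. It measured 5.18, 6.23 and 4.99 CPM in siSCR and 5.81, 13.4 and 12.8 CPM in siMETTL3, where siMETTL3 1 lay among the controls. For HBA2, an α-globin gene near-identical to HBA1 (log2 0.75, adjusted p = 0.0352), and for VDAC2P5 the assignment of reads between copies is uncertain. In all, the groups did not overlap for 35 of the 36 DEGs, as for 13.2% of all genes tested.

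**Figure D2:**
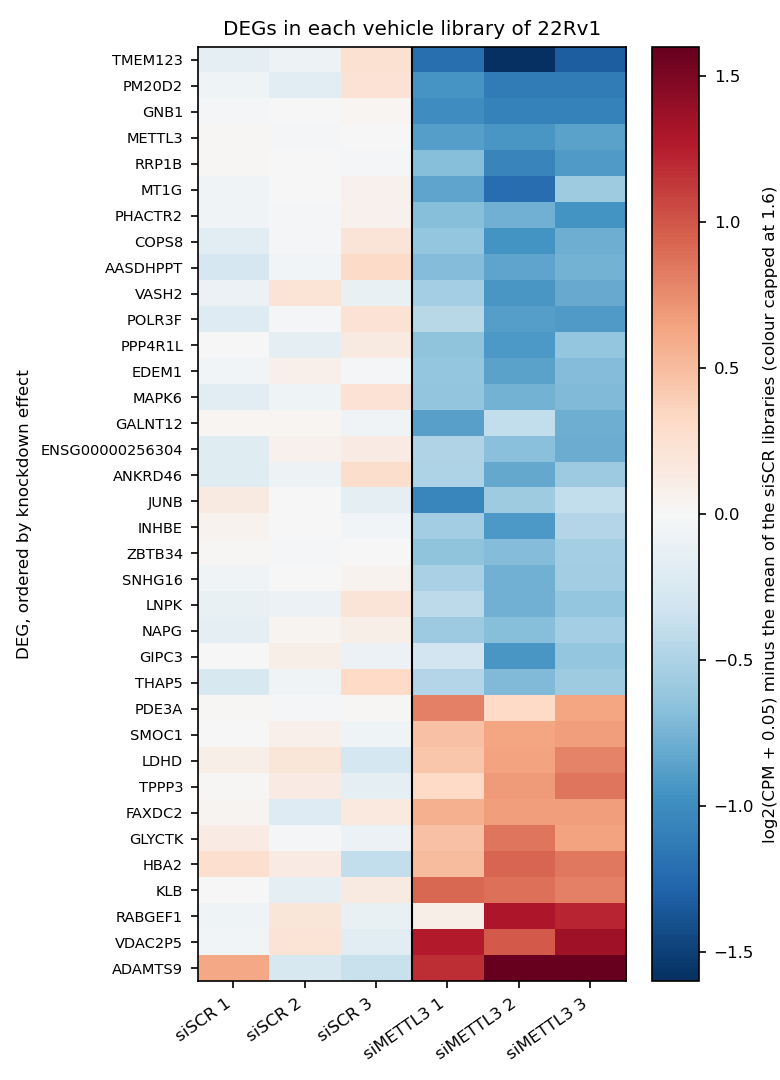
The 36 DEGs of 22Rv1 with vehicle in each of the 6 libraries, as log2(CPM + 0.05) minus the mean of the siSCR libraries, ordered by knockdown effect. METTL3, GNB1 and ZBTB34 are even within both groups, whereas TMEM123, PM20D2 and AASDHPPT are higher in siSCR 3 than in siSCR 1 and 2, and RABGEF1 in siMETTL3 1 resembles the controls.

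Below the fold threshold, the genes with the lowest p-values again mostly fell. CLIC4, an intracellular chloride channel protein, went from 451, 473 and 578 CPM to 363, 317 and 333 CPM (log2 −0.57, adjusted p = 0.000788). RPS7, a protein of the small ribosomal subunit, fell by 0.46, UGT2B15, which glucuronidates androgens, by 0.55, and TGS1, the enzyme that hypermethylates the cap of small nuclear RNAs, by 0.58 on the log2 scale. KLF11, RSRP1, ZFP3 and PAICS, an enzyme of purine synthesis, fell by 0.55, 0.58, 0.57 and 0.45, with adjusted p-values up to 0.00664. The other genes of the lowest 10 rose. They were MAPK4, the kinase ERK4 (log2 0.47, adjusted p = 0.00642), and ARRB1, β-arrestin 1 (log2 0.58, adjusted p = 0.00703). UGT2B15 has close paralogues, so its counts are uncertain.

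Every 7-base word was then ranked by the median knockdown effect of the tested genes whose 3′UTR held it, over 13772 genes with an annotated 3′UTR (GENCODE release 44, 1 transcript per gene) and 16239 words held by at least 50 genes. The words were chosen by these same values, which are therefore a description without a test. The lowest median belonged to CGTACTA (114 genes, log2 −0.16) and the next to CCGTACT (181 genes, −0.12). The other words of the lowest 4, ACGTACT (−0.12) and CGTACTT (−0.11), contained the same CGTACT. For comparison, the median over all these genes was −0.0045 and the SD of the word medians 0.0367. The METTL3 mRNA held both of the lowest words, overlapping as CCGTACTA in its coding sequence in exon 6 of 11. None of the other 13 words among the lowest 15 occurred in it. The share of all ranked words that this transcript of 1980 bases holds was not counted. Whether the lowest words occur in it more often than other words was therefore not tested.

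The stretch of METTL3 and the stretches of the 3′UTRs of genes that fell are shown because they share these bases. Each is read 5′ to 3′ on the sense strand (GRCh38, GENCODE release 44), with the shared word in capitals. The METTL3 stretch (chr14:21500522-21500551, minus strand) lies in coding exon 6. The others lie in the last exon of their transcript, within the 3′UTR, namely those of GNB1 (chr1:1786963-1786992, minus strand), RRP1B (chr21:43693785-43693814, plus strand), KLF11 (chr2:10053422-10053451, plus strand), TMEM123 (chr11:102396714-102396742, minus strand), PM20D2 (chr6:89162437-89162465, plus strand) and CLIC4 (chr1:24842340-24842368, plus strand).
METTL3: gctcaacatacCCGTACTAcaggatgatgg
GNB1: atcctatccaaCCGTACTAacgtggacacc
RRP1B: taccgtattcgCCGTACTAagttggtttct
KLF11: tgtggccttatCCGTACTAtattgtgggta
TMEM123: ctttcaaatacCCGTACTttgaatgtagg
PM20D2: tttttgcaaatCCGTACTtgataggatta
CLIC4: cagactttctaCGTACTActccaaagact

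The word was common among the genes that fell. Of the 22 DEGs that fell and had an annotated 3′UTR, 11 (50%) held CGTACTA or CCGTACT there, against 1.95% of all genes with a 3′UTR. These were GNB1, TMEM123, PM20D2, RRP1B, PHACTR2, COPS8, NAPG, ZBTB34, THAP5, JUNB and VASH2. A further 4, MAPK6, AASDHPPT, ANKRD46 and GALNT12, held the 6 shared bases CGTACT, which 5.11% of all 3′UTRs contained. EDEM1, LNPK, POLR3F, MT1G, INHBE and GIPC3 held none of these, and METTL3 held the word in its coding sequence and not in its 3′UTR. Among genes that passed the adjusted p with a smaller decrease, 17 of 44 (38.6%) held a 7-base word, including CLIC4, TGS1, KLF11, ZFP3, LIMK1, the ER stress sensor ATF6 and the ER chaperone DNAJC3. Of the 10 DEGs that rose and had a 3′UTR, 0 held one and KLB and GLYCTK held the 6 bases, and 1 of 20 genes that rose by less did, namely ARRB1. Without siSCR 3 and siMETTL3 1, where more genes were called, 11 of 45 DEGs that fell and had a 3′UTR (24.4%) and 1 of 60 that rose held a 7-base word.

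The median was lower the more of these bases the 3′UTR held. The words had been picked as the lowest on these same values, so this order is partly fixed by the choice and is no test. The median was log2 −0.24 for the 25 genes with the 8-base CCGTACTA in the 3′UTR, −0.14 for the 269 genes with either 7-base word, −0.078 for the 435 genes with the 6 shared bases and neither word, and 0.00036 for the 13068 genes without them. Of the 269 genes, 75.5% lay below 0, and 28 (10.4%) fell with an adjusted p under 0.05 at any fold, against 0.207% of the genes without the 6 bases. Without siSCR 3 and siMETTL3 1 these numbers were 59 of 269 (21.9%) and 2.28%. The reverse complements TAGTACG and AGTACGG, in the 3′UTRs of 113 and 132 genes, had medians of −0.066 and −0.04, and 0 and 1 of their genes fell with an adjusted p under 0.05 in edgeR. AGTACG, the reverse complement of the 6 shared bases (562 genes), had a median of −0.047. The 358 genes with a 7-base word in the coding sequence and without the 6 bases in the 3′UTR had a median of −0.047. Of these 358 genes, 7 (1.955%) fell with an adjusted p under 0.05 in edgeR, as did 11 (2.53%) of the 435 genes. Genes with a word had long 3′UTRs, with a median of 3079 bases against 1316 for all genes, as did the genes with the reverse complements (3853 and 3508 bases). Relative to the mean of siSCR, the median of the 269 genes was −0.103 in siMETTL3 1, −0.17 in siMETTL3 2 and −0.154 in siMETTL3 3 on the log2(CPM + 0.5) scale, and without siSCR 3 and siMETTL3 1 the fitted median was −0.128. The controls differed for these genes as well. The median in siSCR 3 relative to the other siSCR libraries was 0.0733 for the 269 genes and 0.133 for the genes with CGTACTA, and in siSCR 1 and siSCR 2 it was −0.0282 and −0.0286 for the 269 genes. The guide sequences of the siRNA pool were not given in the sources used here, and whether one of them carries this seed was not tested.

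The words were then read in the other libraries. Those with R1881 were here fitted on their own, though they had shared the filter, scaling and dispersion of the fit that ranked the words. In 22Rv1 with R1881, CGTACTA ranked lowest (median log2 −0.23 over 111 genes) and CCGTACT next (−0.19 over 176 genes) of 16227 words. With R1881, 22 of 261 genes with either word (8.43%) were DEGs that fell, against 0.739% of the genes without the 6 bases. In LNCaP:C4-2 with vehicle the medians were smaller, −0.051 and −0.061, at ranks 15 and 7 from the lowest. In LNCaP:C4-2 with R1881 they were −0.20 and −0.13, at ranks 36 and 4824. The reverse complements TAGTACG and AGTACGG had medians of −0.13 and −0.056 in 22Rv1 with R1881 and −0.14 and −0.073 in LNCaP:C4-2 with R1881. Both were at −0.019 in LNCaP:C4-2 with vehicle. In 22Rv1 with R1881, 34.3% and 28% of their genes fell with an adjusted p under 0.05. This share was 45.2% for either word and 17% without the 6 bases. There AGTACG was at −0.10, and the 6 bases without either word at −0.12.

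**Figure D3:**
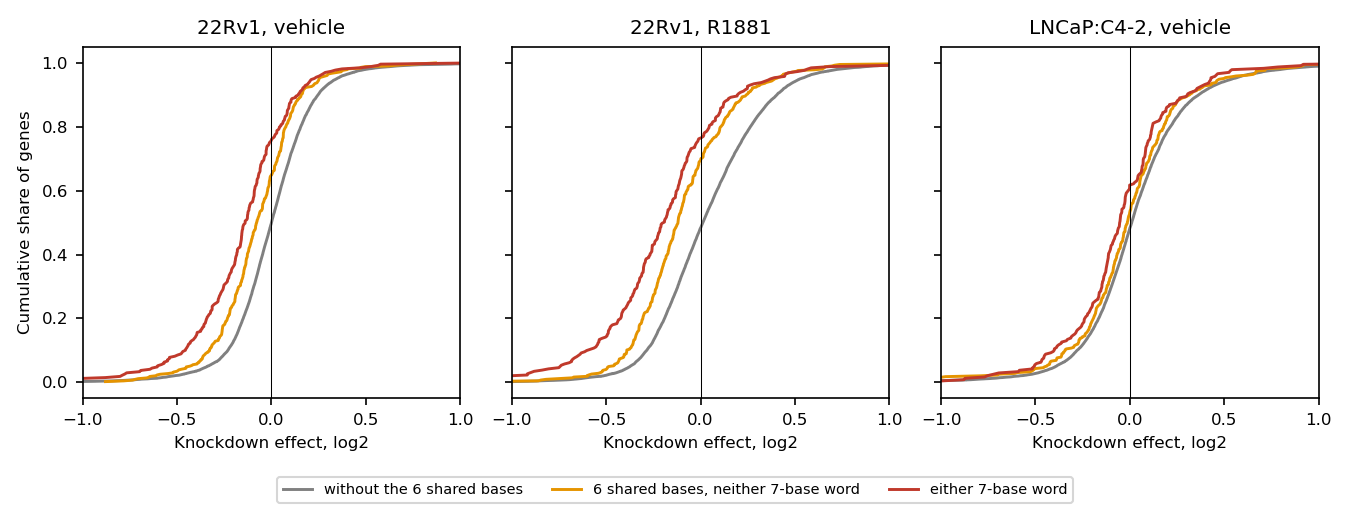
Cumulative share of genes (vertical axis) against knockdown effect as log2 (siMETTL3 / siSCR), for genes with either 7-base word in the 3′UTR (red), with the 6 shared bases and neither word (orange) and without them (grey), in 3 contrasts. In 22Rv1 with vehicle 75.5% of the 269 red genes lie below 0, in 22Rv1 with R1881 76.2% and in LNCaP:C4-2 with vehicle 61.8%.

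Base composition moved with the knockdown effect across all genes as well. From the 20% of 3′UTRs lowest in GC (median 31.8%) to the 20% highest (58.5%), the median effect rose from log2 −0.10 to 0.12, and without siSCR 3 and siMETTL3 1 from −0.056 to 0.098. The word with the highest median, GCGCGGG (233 genes, 0.11), had a median 3′UTR GC of 56.9%, and its reverse complement CCCGCGC a median effect of 0.054. Its genes differed between the controls themselves, with a median in siSCR 3 of −0.224 relative to the other siSCR libraries, and without siSCR 3 the word's median was 0.026. With R1881 the median effect ran from −0.13 in the 20% of 3′UTRs lowest in GC to 0.24 in the 20% highest. The part of library composition in these trends was not tested. Genes with longer 3′UTRs lay lower, from 0.058 in the shortest 20% to −0.056 in the longest 20%.

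GGACT, the preferred m6A context, occurred in 62.2% of the 3′UTRs. The median effect was log2 0.0028 for the 5200 genes without it, −0.0038 with 1 copy, −0.0099 with 2 to 3 and −0.012 for the 2005 genes with 4 or more. With R1881 the medians ran from 0.043 without it to −0.054 with 4 or more copies. DEGs made up 0.192% of the genes without GGACT, 0.209% with 1 copy, 0.311% with 2 to 3 and 0.249% with 4 or more. Of all 13772 genes with a 3′UTR, 22 were DEGs that fell and 10 DEGs that rose. The share over all genes tested, 0.202%, includes genes without an annotated 3′UTR.

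The DEGs were next followed in the 6 R1881 libraries of 22Rv1, fitted on their own. These share no library with the vehicle contrast, but had shared the filter, scaling and dispersion of the fit that called the DEGs. Agreement with the vehicle calls is therefore not fully independent. In the R1881 libraries 765 of 16699 genes (4.58%) were DEGs, 218 (1.31%) lower and 547 (3.28%) higher, and 34.8% passed an adjusted p under 0.05 at any fold. Of the 25 genes that fell with vehicle, 25 were also below 0 with R1881, 17 (68%) were DEGs that fell and 23 passed the adjusted p, as did 15.8% of all genes in that direction. Of the 11 that rose, 8 (72.7%) were DEGs that rose, and the same 8 passed the adjusted p, as did 18.9% of all genes in that direction. Of the DEGs called without siSCR 3 and siMETTL3 1, 24 of 63 that fell and 46 of 78 that rose were DEGs of the same direction with R1881. TMEM123 fell by 1.45 on the log2 scale with R1881, GNB1 by 1.16, PM20D2 by 1.06 and METTL3 by 1.16, and KLB rose by 0.71 (adjusted p up to 6.2e-05).

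The exceptions were SNHG16 (log2 −0.14, adjusted p = 0.0539), PPP4R1L (−0.22, 0.223), VDAC2P5 (0.26, 0.507), ADAMTS9 (−0.24, 0.71) and PDE3A (−0.017, 0.849). PDE3A had mean levels of 102 CPM in siSCR and 99.6 CPM in siMETTL3 with R1881, against 7.45 and 11.3 CPM with vehicle. JUNB and INHBE passed the adjusted p with smaller decreases (−0.21 and −0.23). A direct test of the difference between treatments, which uses the same vehicle libraries, found none of the 36 DEGs at an adjusted p under 0.05 (lowest 0.686 in edgeR and 0.253 in DESeq2). At an unadjusted p under 0.05 it found 8 in edgeR, as for 6.16% of all genes, and 7 in DESeq2, as for 2.7% of 37522 genes. Over all genes 3 of 17865 (0.0168%) passed the adjusted p in edgeR. These were AGR2, IGFBP3 and AKAP12, none of them a DEG with vehicle.

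**Figure D4:**
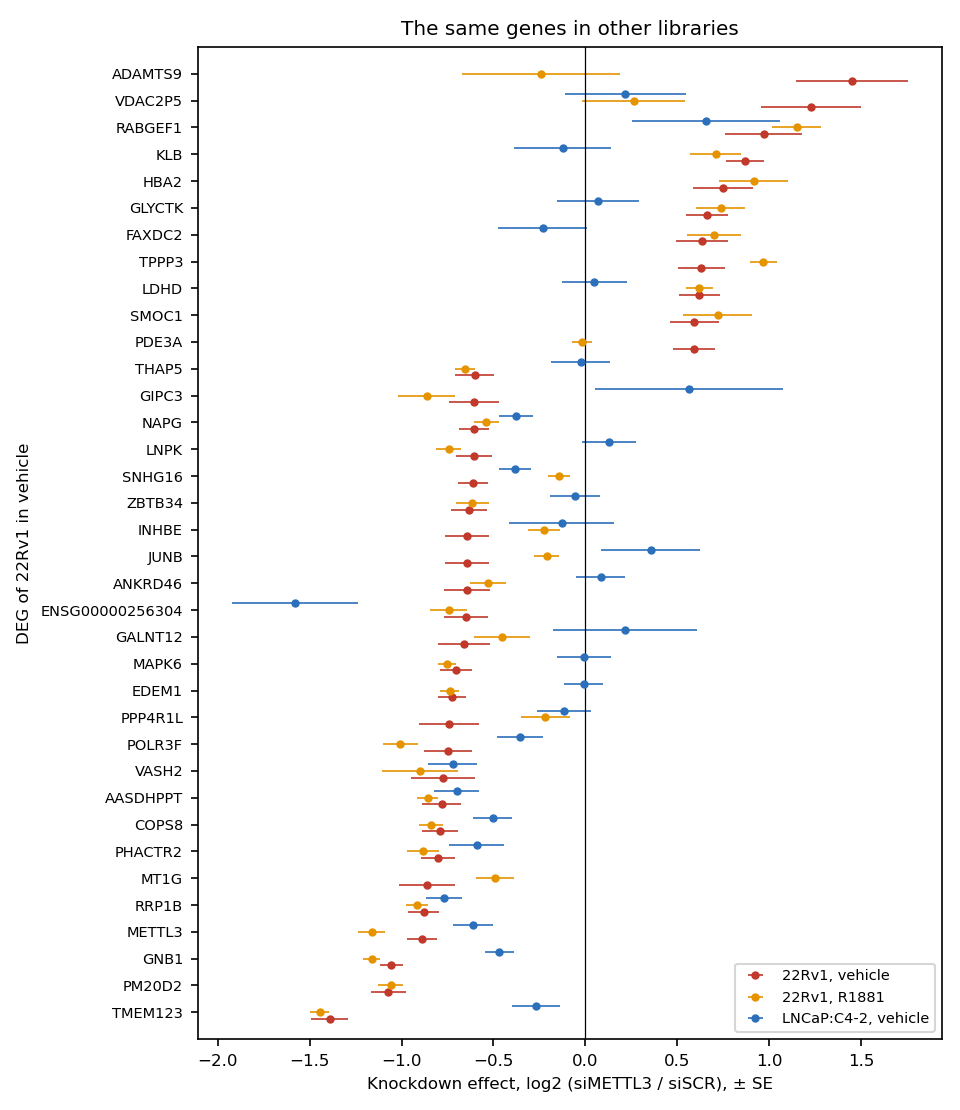
Knockdown effect as log2 (siMETTL3 / siSCR) ± SE of the 36 DEGs in 22Rv1 with vehicle (red), 22Rv1 with R1881 (orange) and LNCaP:C4-2 with vehicle (blue, shown where tested). Red and orange points lie close for most genes, with ADAMTS9, PDE3A, VDAC2P5, SNHG16, PPP4R1L, JUNB and INHBE among those apart. GNB1, TMEM123 and EDEM1 lie lower in 22Rv1 than in LNCaP:C4-2.

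In LNCaP:C4-2 with vehicle, where METTL3 fell by 0.61 on the log2 scale, 1.2% of the genes tested were DEGs, 0.371% lower and 0.828% higher. There 29 of the 36 DEGs were tested and 22 had the same direction. The 5 genes that were DEGs in both lines all fell and were METTL3, RRP1B, AASDHPPT, VASH2 and ENSG00000256304. They make up 20% of the 25 genes that fell in 22Rv1, of which 23 were tested. The difference between lines, tested in a fit of all 24 libraries, passed an adjusted p under 0.05 for 89 of 19437 genes (0.458%), and for GNB1, TMEM123 and EDEM1 among the DEGs. In DESeq2 KLB, MAPK6, ZBTB34, LNPK and ANKRD46 passed as well. GNB1 fell by 0.47 in LNCaP:C4-2 (adjusted p of the difference 0.00291), TMEM123 by 0.27 (0.00317) and EDEM1 was at −0.0092 (0.00755). In LNCaP:C4-2 with vehicle the siMETTL3 1 library was the highest of its group for TMEM123 and EDEM1, at 263 and 102 CPM against 165 to 209 and 82 to 82.7 CPM. With R1881 the LNCaP:C4-2 values were −0.58 for GNB1 and −0.95 for TMEM123 (adjusted p 0.00564 and 0.0065), −0.24 for EDEM1 (0.158) and −0.67 for MAPK6 (0.0454). For MAPK6, LNPK and KLB the values were −0.0071, 0.13 and −0.12 in LNCaP:C4-2, and the differences missed the threshold in edgeR (adjusted p 0.0699, 0.065 and 0.0688). The fall of METTL3 itself differed by −0.30 between the lines (adjusted p = 0.353), and its part in these differences was not tested.

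Of 9 m6A writer genes, METTL3 alone passed. METTL14, the partner of METTL3 in the catalytic core, was at log2 −0.11, WTAP at −0.067, VIRMA at 0.024, ZC3H13 at 0.0074 and RBM15 at −0.059 (adjusted p 0.619 to 0.975), and the list median was −0.0046. Of 16 readers and erasers 0 passed in edgeR or DESeq2 and 0 had an unadjusted p under 0.05, with values from −0.20 to 0.19 and a median of −0.037. Of 13 genes of RNA interference (median −0.085) 0 passed in edgeR or DESeq2 and 2 had an unadjusted p under 0.05, with DICER1, which makes small RNAs, at −0.27 (adjusted p = 0.189) and AGO2 at 0.044. Of 24 genes of double-stranded RNA sensing and the interferon response (median −0.0044) 0 passed in edgeR, 5 had an unadjusted p under 0.05 and STAT2 passed in DESeq2. IFIT1, an interferon-induced RNA-binding protein with the lowest value of that list (−1.32, adjusted p = 0.379), was below 1 CPM in every library.

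Across 31 gene lists, 7 of 665 measured members were DEGs (1.05%) against 0.202% of all genes. Without siSCR 3 and siMETTL3 1, 8 members were DEGs, beside 141 of all 18173 genes tested in that fit. The lists were drawn up with earlier results of these data in view. At any fold 11 members (1.65%) passed the adjusted p in edgeR, against 0.56% of all genes, and 25 of 620 (4.03%) in DESeq2, against 2.1%, and 144 (21.7%) had an unadjusted p under 0.05, as did 14.6% of all genes. Each of the 7, METTL3, GNB1, RRP1B, AASDHPPT, VASH2, JUNB and ADAMTS9, was the one DEG of its list. The β1 subunit GNB1 was alone among 20 measured G protein subunits, with GNB2 at log2 0.060, GNB4 at −0.36 and GNB5 at −0.15, and the list median was −0.055. RRP1, the close relative of RRP1B, was at 0.17, and the 25 genes of nucleolar ribosome biogenesis had a median of −0.057. VASH1 and the vasohibin partner SVBP were at 0.051 and 0.042, with a median of 0.044 over the 15 genes of the tubulin tyrosine cycle. COASY, which completes coenzyme A, was at 0.24 (adjusted p = 0.16), with a median of 0.057 over 13 genes of its list. AASS, another member, passed in DESeq2. JUN and FOS were at 0.27 and −0.055, with a median of 0.097 over 25 immediate early and MAPK feedback genes. FOSL2 and ETV4 of that list passed in DESeq2. The 25 ADAMTS and matrix genes had a median of 0.034.

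Androgen-induced genes and steroid metabolism showed few calls. The 25 androgen-induced genes had a median of log2 0.043. In edgeR 0 of them passed, 4 had an unadjusted p under 0.05, and TMPRSS2 passed in DESeq2. The androgen-induced list held KLK3 (prostate-specific antigen) at 0.34 (adjusted p = 0.316). The list of 11 UDP-glucuronosyltransferases and relatives (UGT8, UGT3A1 and UGT3A2), whose UGT2B members include enzymes that inactivate steroids, had the lowest median of all lists, −0.29, and 9 of 11 lay below 0, but UGT2B15 alone passed the adjusted p. Its homologues UGT2B17, UGT2B11 and UGT2B28 were at −0.29, −0.25 and −0.35 (adjusted p 0.407 to 0.638). Of 26 cholesterol synthesis genes 21 lay above 0 with a median of 0.083, and TM7SF2, a sterol reductase, passed the adjusted p (log2 0.50, adjusted p = 0.0417), from 116, 112 and 85.6 CPM to 118, 170 and 155 CPM. The siSCR 3 library was its lowest control and siMETTL3 1 lay at the level of siSCR 1. In the cholesterol list 10 genes had an unadjusted p under 0.05, and DESeq2 passed DHCR7 as well. For 28 fatty acid genes the median was 0.012 and for 30 glycolysis and HIF-1 genes 0.040, with 0 passing in edgeR, 4 and 9 at an unadjusted p under 0.05, and SCD and PGAM1 passing in DESeq2.

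Proliferation genes had no call in edgeR. Of 32 mitotic genes 27 were below 0 with a median of log2 −0.13, which was −0.067 without siSCR 3 and siMETTL3 1. The medians were −0.053 for 40 DNA replication genes, 0.00019 for 24 G1 cyclins, kinases and inhibitors, and −0.0013 for 25 p53 targets, where CDKN1A was at 0.11 and GDF15 at −0.022. In these 4 lists 7, 5, 5 and 6 genes had an unadjusted p under 0.05, and DESeq2 passed TNFRSF10B and ZMAT3 among the p53 targets. Among 25 genes of ER stress and the integrated stress response (median −0.033) 0 passed in edgeR, 4 had an unadjusted p under 0.05 and SDF2L1 passed in DESeq2, and HSPA5 and DDIT3 were at −0.10 and −0.021. Of 60 cytosolic ribosomal protein genes, RPS7 alone passed, with a median of 0.0035. The 13 mitochondrially encoded genes had a median of −0.097 (0 passing in edgeR or DESeq2, 1 at an unadjusted p under 0.05), which was −0.27 without siSCR 3 and siMETTL3 1. Without these libraries the median turned to 0.0087 for DNA replication, −0.0068 for glycolysis, 0.019 for double-stranded RNA sensing, −0.0071 for the epithelial and mesenchymal list and −0.026 for the ADAMTS list, and was −0.021 for splicing regulators and 0.14 for cholesterol synthesis.

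Of the remaining lists, the epithelial and mesenchymal list held 1 gene that passed, ESRP1, an epithelial splicing regulator (233, 260 and 267 CPM against 219, 177 and 194 CPM, log2 −0.36, adjusted p = 0.0286), with a median of 0.054 over 16 genes. In edgeR 0 passed among 13 antigen presentation genes (median 0.096), 24 integrin and focal adhesion genes (0.076), 11 neuroendocrine markers (0.031), 31 splicing regulators (−0.088), 22 histone and chromatin genes (−0.016), 12 mitochondrial carriers (0.052) and the 2 reference genes of the RT-qPCR (−0.012). The numbers at an unadjusted p under 0.05 were 2, 6, 2, 10, 4, 3 and 0 in that order, and ITGB5, FLNA and the splicing regulator HNRNPU passed in DESeq2.

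**Figure D5:**
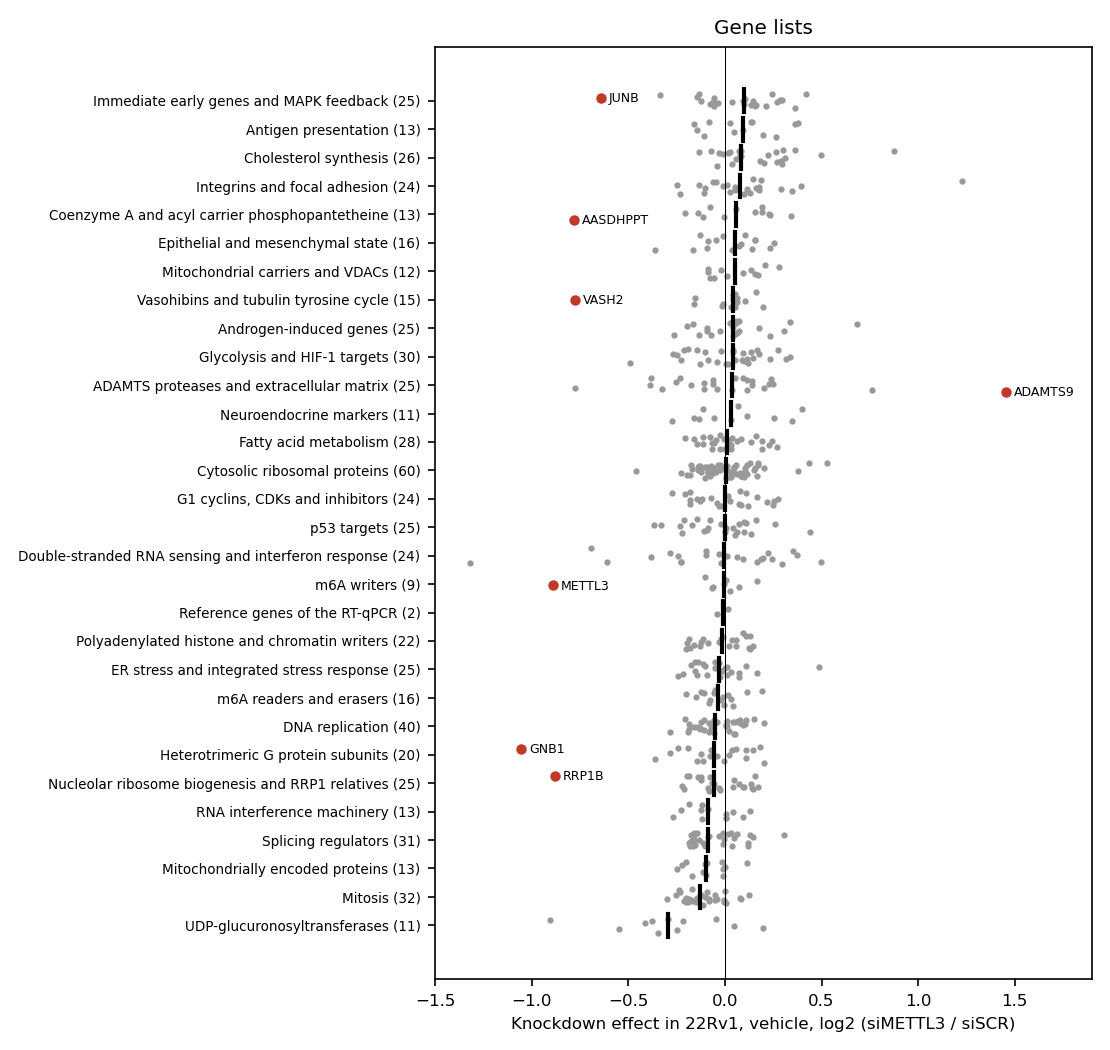
Knockdown effect in 22Rv1 with vehicle, as log2 (siMETTL3 / siSCR), of the members of 30 gene lists (points, number measured in brackets), with list medians as black bars and DEGs in red. Medians run from −0.29 (UDP-glucuronosyltransferases and relatives) to 0.097 (immediate early genes and MAPK feedback), and the 7 red points stand apart from the other members of their lists.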

How the data were processed

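RNA from the 24 cell line samples was sequenced. Per the labels and the study's methods, the authors used Trim Galore for trimming, STAR for alignment (GRCh38) and featureCounts 1.5.0 with Ensembl release 83 for counting. The deposited values are the unnormalized counts of 60675 genes. The stated settings name no strand option, so overlapping and antisense genes cannot be told apart. Symbols were available for 41209 genes.

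The 12 libraries of 22Rv1 were fitted together in edgeR 4.0.16 (R 4.3.3) as one mean for each group after filterByExpr (minimum count 10, minimum total 15) and TMM scaling, by glmQLFit and glmQLFTest. A DEG passed 0.05 after Benjamini-Hochberg adjustment with a change of at least 1.5-fold. Standard errors are the absolute log2 fold change over the root of F. The R1881 libraries were fitted on their own, and the lines compared over all 24 libraries at an adjusted p under 0.05. METTL3 was also tested by exact permutation (scipy 1.17.1). On simulated counts for the vehicle knockdown (17865 genes, 200 changed by 1 log2 unit) edgeR recovered 91.5% with 1.61% of calls false. Smaller changes, which most DEGs showed, were not simulated. These rates describe the simulated counts alone. They cannot be taken for the real vehicle libraries, where some lay apart from their groups and the calls moved with single libraries.

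The text names METTL3, every DEG, the 10 genes of lowest p among those with an adjusted p under 0.05 and a smaller change, members of 31 gene lists and, among holders of the 3′UTR words, genes chosen after their values were seen. The members and lists were chosen with earlier results of these data known. Words of 7 bases were searched on the sense strand of 1 GENCODE transcript per gene. DESeq2 1.42.0, other scalings and filters, a replicate block, the 6 libraries alone and leaving out each library were tried as alternatives. The result of 1 gene list is not reported here. The STM2457 experiment and splicing were not analysed here.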

Additional observations from a re-analysis of the deposited data

Results flagged for a closer look

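The knockdown effect differed between 22Rv1 and LNCaP:C4-2 in vehicle for 6 named genes, by the test of the difference in edgeR over all 24 libraries. The difference, 22Rv1 minus LNCaP:C4-2, was log2 −1.14 for TMEM123, −0.61 for GNB1 and −0.73 for EDEM1. TMEM123 measured 245, 256 and 266 CPM in siSCR and 263, 209 and 165 CPM in siMETTL3 of LNCaP:C4-2, where the groups overlapped. GNB1 measured 631, 626 and 649 against 453, 470 and 455 CPM there, and EDEM1 81.4, 91.4 and 95.7 against 102, 82 and 82.7 CPM. CLIC4 (−0.66, adjusted p = 0.0238) and KLF11 (−0.60, adjusted p = 0.0423) held the 3′UTR words and were at log2 0.071 and 0.035 in LNCaP:C4-2. ESRP1 differed by −0.75 (adjusted p = 0.0109), with 58.1, 58.9 and 61.3 CPM in siSCR and 91.8, 72 and 67 CPM in siMETTL3 of LNCaP:C4-2. The GNB1 and TMEM123 differences passed in all 12 fits that left out 1 library, EDEM1 and ESRP1 in 11, CLIC4 in 6 and KLF11 in 3. KLF11 passed under 1 of 3 other settings.

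The effect of the knockdown differed between R1881 and vehicle in 22Rv1 for 3 genes, each above 0 with vehicle and below 0 with R1881. AGR2, a protein disulfide isomerase relative, measured 69.9, 73.6 and 79.5 CPM in siSCR and 97.1, 86 and 91.8 CPM in siMETTL3 with vehicle (log2 0.30, adjusted p = 0.0575), and the difference of effects was −0.75 (adjusted p = 0.00265). IGFBP3, which binds insulin-like growth factors, was at 124, 121 and 127 against 142, 127 and 147 CPM (log2 0.16, adjusted p = 0.338). Its difference of effects was −0.77 (adjusted p = 0.00265). AKAP12, a scaffold of protein kinase A, was at 25.2, 22.3 and 22.4 against 28.6, 29.9 and 27 CPM (log2 0.29, adjusted p = 0.153). Its difference of effects was −0.72 (adjusted p = 0.0275). With R1881 the effects of AGR2, IGFBP3 and AKAP12 were log2 −0.42, −0.59 and −0.41 (edgeR on the R1881 libraries alone, adjusted p up to 2.17e-08). Their mean levels with R1881 were 224.7, 326.2 and 493.5 CPM in siSCR and 165, 213.2 and 366.3 CPM in siMETTL3. The AGR2 and IGFBP3 differences passed in all 12 fits that left out 1 library and AKAP12 in 5 of 12.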

How the results depend on the processing

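The 36 DEGs became 87 with no filter on low counts (54 higher, 33 lower), 14 with the 6 vehicle libraries alone, 3 with the 1.5-fold threshold inside the test (glmTreat), 100 with no fold threshold, 21 at an adjusted p under 0.01 and 141 without siSCR 3 and siMETTL3 1 (chosen after seeing the data, as were the R1881 contrast from 12 libraries, which called the same number of 25, and the reverse complement and coding sequence words). They numbered 35 to 41 with RLE size factors, library size alone, DESeq2 or at least 10 counts in every library. Leaving out 1 library gave 15 to 228. The difference between treatments (3 genes) ranged from 2 to 30 when 1 library was left out, 30 without siSCR 3 of vehicle and 2 or 3 otherwise. The difference between lines (89 genes) was 327 in DESeq2 and ranged from 14 (without siSCR 1 of LNCaP:C4-2) to 308 (without its siMETTL3 3). The median for CGTACTA ranged from −0.213 to −0.119, and that word was lowest in each of these 6 fits and the second lowest without siSCR 3 and siMETTL3 1 together, where CCGTACT was lowest. CCGTACT ranked 2 to 4 in the 6 fits. The log2 fold change of METTL3 ranged from −0.906 to −0.871 over all settings. Over the DEGs other than METTL3 and the 10 genes named below the fold threshold, 498 results under an alternative kept their side of the threshold, 129 fell short of it and 0 changed direction. The cause was not tested. Same-numbered siSCR and siMETTL3 libraries correlated at −0.228 to 0.0515 after group means were removed, so the numbers were not taken as pairs, and with the replicate block 29 DEGs were called. At this depth changes of genes near 0.174 CPM could not be read.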
